A study of Mus musculus with 9 samples.

Results

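The mRNAs of the mitogen-activated protein (MAP) kinase cascade were described in maps of the RNA held by FMRP, whose loss causes fragile X syndrome, and by the neuronal Hu proteins on mouse brain polyribosomes. The members were every gene of the authors' gene table whose symbol is Mapk, Map2k, Map3k or Map4k followed by a number, or Mapk, a number, ip and a number. This gave 44 of 29524 genes, of which 4 belong to the tier of interacting proteins (called scaffolds here), 5 to the MAP4K tier, 15 to the MAP3K tier, 7 to the MAP2K tier and 13 to the MAPK tier. The symbol alone decided membership.

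In a MAP kinase cascade, a MAP3K phosphorylates and activates a MAP2K, which in turn activates a MAPK, and MAP4K enzymes act on some MAP3Ks from above. The main branches end in the ERK, JNK and p38 kinases. The JNK-interacting proteins (JIPs) hold the kinases of one branch together, and in neurons they also tie them to kinesin motors, and ERK and JNK signalling act in synaptic plasticity and in the axon's response to injury.

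The assay was HITS-CLIP, in which RNA is crosslinked to its bound proteins by ultraviolet light and trimmed, the protein of interest is immunoprecipitated, and the attached fragments are sequenced as tags. Tissue was cortex with cerebellum, dissected away from white matter, of pooled FVB littermates, treated with cycloheximide, which stalls ribosomes. The protocol text names male wild-type and Fmr1Tm1Cgr mice for the P14, P15 and P25 preparations, and the series text states that Fmr1-null littermates served as a specificity control in most experiments. No library analysed here is labelled as Fmr1-null. Under Protocol 1 (1% SDS, 454 sequencing) FMRP was precipitated with a mixture of the monoclonal antibodies 7G1-1 and 2F5 at P14, P15 and P25 (3 libraries) or with the polyclonal antibody ab17722 at P14 and P25 (2 libraries). Under Protocol 2 (2% SDS, Illumina sequencing) lysates of P11 and of P13 were split, with one portion precipitated by ab17722 and the other by a human anti-Hu antiserum (2 libraries each).

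The 454 libraries held 4397 to 7713 tags on transcripts and the Illumina libraries 25873 to 49847. A count of 0 allows up to 3 counts, which is 682 CPM (tags scaled to a common library size) in the smallest library and 60.2 in the largest. Intervals and these limits cover counting error only. Because the libraries within a group come from pools of different ages, the p-values speak only for the spread among these libraries. All 8 neuronal marker genes had Illumina tags, and their sum was 3098 and 5763 CPM in the P11 and P13 FMRP libraries against 7305 and 12258 in the Hu libraries. The 7 oligodendrocyte markers summed to 448 and 3131 in FMRP against 8194 and 17995 in Hu, and the 7 astrocyte markers to 1642 and 976 against 77.3 and 120. Microglial and endothelial markers stayed at or below 232. Since the FMRP and Hu libraries came from the same lysates and these markers differ between them, each comparison with Hu below is to be read beside these values, whose part in it was not tested.

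Across the 7 FMRP libraries the authors counted 546 tags on members. At least 1 tag fell on 36 of the 44 members, 16 had 10 or more, 20 had 1 to 9, and 8 had none. Member tags made up 0.470% to 0.719% of the transcript tags in the FMRP libraries, and 0.518% and 0.397% in the P11 and P13 Hu libraries. In all 7 FMRP libraries, a tag was present for 4 members (Mapk8ip3, Mapk8ip1, Map4k4 and Map3k12), against 7.49% of the 8976 genes with any FMRP tag. In the authors' deposited table, 7 members had an FDR under 0.05, against 12.3% of the same genes. They included Mapk8ip3, Mapk8ip1, Map4k4, Map3k12, Map3k10 and Mapk4, and no MAP2K was among them.

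**Figure D1:**
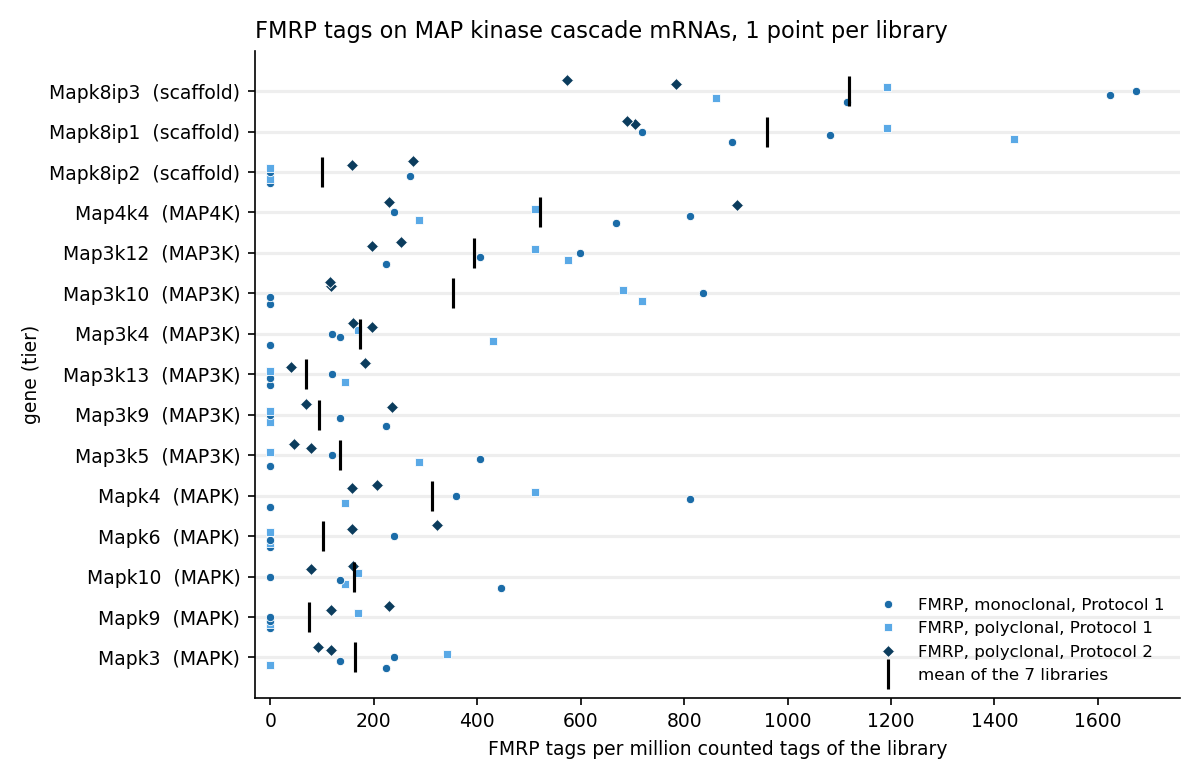
FMRP CPM, relative to the tags counted per library (horizontal axis), of 15 members with 10 or more FMRP tags, with 1 point for each of the 7 libraries and a bar at their mean. Mapk8ip3 and Mapk8ip1 lie farthest right, at means of 1118 and 959 CPM, and each of the 5 MAPK-tier genes drawn has at least 1 library at 0.

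The scaffold tier held the most FMRP tags, 190 of the 546 (34.8%). Mapk8ip3 encodes JIP3, a JNK scaffold that also links cargo to kinesin and dynein, and lies at chr17:25034499-25073907 (mm9, bounds as in the authors' table). It had 5, 12 and 14 FMRP tags in the monoclonal libraries of P14, P15 and P25, 6 and 7 in the polyclonal 454 libraries of P14 and P25, and 20 and 25 in the Illumina libraries of P11 and P13. Its mean was 1118 ± 417 CPM (SD, n = 7), which placed it at rank 149 by tags among all genes. Mapk8ip1 encodes JIP1, a JNK scaffold that binds kinesin light chain, and lies at chr2:92223837-92241420. Its tags numbered 4, 8 and 6 with the monoclonal antibodies, 10 and 7 with the polyclonal antibody on 454, and 18 and 30 on Illumina, a mean of 959 ± 288 (SD, n = 7) and rank 167. Both scaffolds were therefore seen with both antibodies, both protocols and at every age, and together they took 31.5% of all FMRP tags on members. Mapk8ip2, which encodes JIP2, a close relative of JIP1 in brain, had fewer: 2 tags in the P15 monoclonal library, 4 and 12 on Illumina, and 0 in the other 4 libraries. Those 4 are 454 libraries, where a count of 0 allows 389 to 682 CPM, above its 224 and 272 CPM in the Illumina transcript lists. The transcript lists gave it 2 tags in the P14 polyclonal library. The remaining gene of the tier had no tag in the authors' table or in the transcript lists.

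In the MAP4K tier, Map4k4, a Ste20-type kinase that acts on the JNK branch, carried 49 of the 68 FMRP tags. It had 3, 6 and 2 tags with the monoclonal antibodies at P14, P15 and P25, 2 and 3 with the polyclonal antibody on 454, and 23 and 10 in the P11 and P13 Illumina libraries. Its mean was 521 ± 280 CPM (SD, n = 7), and the P11 library stood above the other 6. The other MAP4Ks had 9 (Map4k3), 8 (Map4k5), 2 (Map4k2) and 0 (Map4k1) tags in the table.

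The MAP3K tier had 137 FMRP tags on 13 of its 15 members. The kinases of the mixed-lineage group (Map3k9 to Map3k13), which feed the JNK and p38 branches, held 81 of them. Map3k12 encodes DLK, the dual leucine zipper kinase of axonal injury and developmental neuron death. It had 1, 3 and 5 tags with the monoclonal antibodies, 4 and 3 with the polyclonal antibody on 454 and 5 and 11 on Illumina, a mean of 394 ± 172 CPM (SD, n = 7). Its closest relative Map3k13, encoding LZK, had 11 tags, 8 of them in the P13 Illumina library. Map3k10, which encodes the mixed-lineage kinase MLK2, had 0, 0 and 7 tags with the monoclonal antibodies, 5 and 4 with the polyclonal antibody on 454, and 3 and 5 on Illumina. Its 353 ± 374 CPM (SD, n = 7) thus spread more than the mean itself, and the libraries at 0 were monoclonal P14 and P15. Map3k4, whose product MEKK4 acts on the p38 and JNK branches, had 18 tags in 6 libraries, Map3k9 (MLK1) had 11 and Map3k5 (the stress kinase ASK1) had 10. Map3k8 and Map3k15 had none.

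The MAP2K tier was almost empty in FMRP by the authors' counts, with 11 tags on 5 of its 7 members. The Illumina transcript lists alone held 13. In the authors' counts Map2k4, encoding MKK4, an activator of JNK, had the most, 4 tags. Map2k1, which encodes MEK1, the activator of ERK, had 1 tag, although its exon array intensity in the authors' table was 1672, above that of 98.0% of genes. The transcript lists gave Map2k1 3 FMRP tags, all in the P13 Illumina library.

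The MAPK tier had 140 FMRP tags on 11 of its 13 members. Mapk3, encoding ERK1, had 1, 1 and 2 tags with the monoclonal antibodies at P14, P15 and P25, 0 and 2 with the polyclonal antibody on 454, and 3 and 4 on Illumina, a mean of 164 ± 112 CPM (SD, n = 7). Among the JNK genes, Mapk9 (JNK2) had 14 tags, 13 of them on Illumina, Mapk10 (the mainly neuronal JNK3) had 14 in 6 libraries, and Mapk8 (JNK1) had 1. The atypical kinase genes Mapk4 (ERK4) and Mapk6 (ERK3) had 26 and 20 tags, those of Mapk6 in 3 libraries. The 4 p38 genes, Mapk11 to Mapk14, had 5 tags in all, and Mapk12 and Mapk15 had none.

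Setting FMRP beside Hu, from the same lysates, asks which of these mRNAs each protein held on polyribosomes. It used the transcript tags of the 4 Illumina libraries, since the authors' table has no Hu column. Tags of Hu fell on 22 members. CPM are relative to each library's transcript tags here. The scaffolds had 1941 and 1634 CPM in the P11 and P13 FMRP libraries and 193 and 100.3 in the Hu libraries, whereas the MAPKs had 970 and 1611 in FMRP and 3053 and 2768 in Hu. Pooling both libraries of each protein, the scaffold tier had 124 FMRP tags against 10 Hu tags, a ratio of FMRP to Hu per library total of 13.2 (95% exact counting interval 6.97 to 28.3). The same ratio was 1.99 (1.16 to 3.51) for the MAP4Ks, 1.40 (0.961 to 2.06) for the MAP3Ks, 0.434 (0.209 to 0.850) for the MAP2Ks and 0.478 (0.372 to 0.610) for the MAPKs. Over all members it was 1.10 (0.944 to 1.28). In the scaffold and MAPK tiers the libraries of the 2 proteins did not overlap, and the MAP2Ks were likewise lower in both FMRP libraries, whereas those of the MAP4Ks and MAP3Ks overlapped. Of the 51 Hu tags on MAP3Ks, 34 lay on Map3k1, so the MAP3K ratio and overlap depend on that gene. The zero point depends on the scaling: over all genes tested, the log2 ratio had its median at -0.43 under library totals, at -0.17 under TMM factors and at 0.21 under DESeq2's size factors. Moved by that shift to the DESeq2 zero point, the tier ratios were 20.6, 3.10, 2.18, 0.675 and 0.743, each on the side of 1 where it stood with library totals. Only the ratios were moved. Whether an interval holds 1, for a tier here or a single gene below, is given for library totals and can change with the scaling, as for the MAP3Ks and MAP2Ks.

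**Figure D2:**
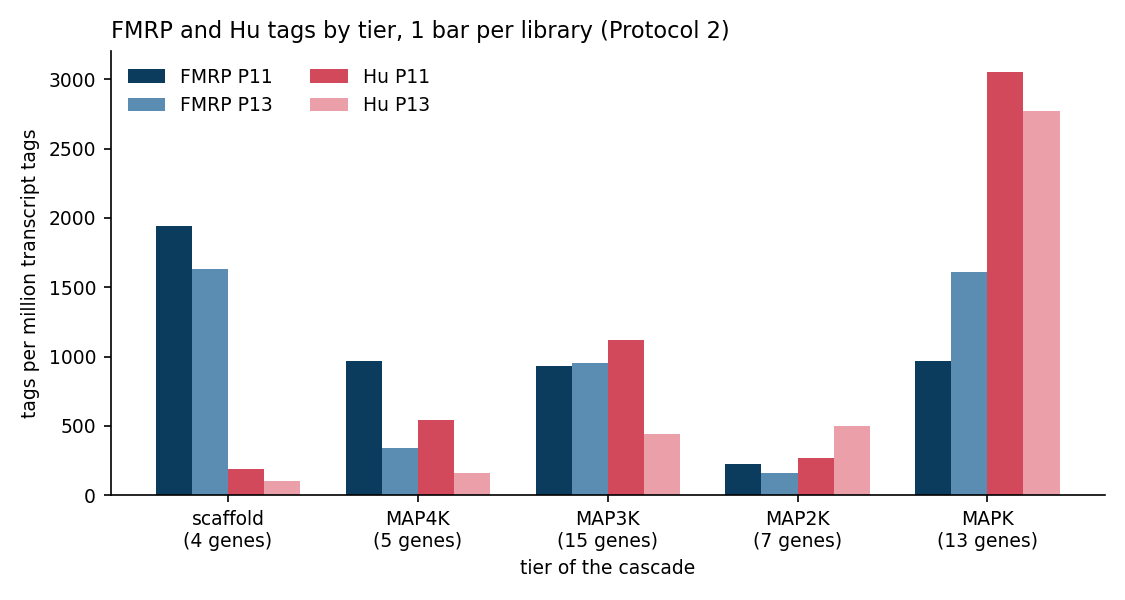
CPM, relative to transcript tags (vertical axis) of each tier, summed over its members, in the 4 Protocol 2 libraries (1 bar per library). The scaffold bars are 1941 and 1634 for FMRP against 193 and 100.3 for Hu, and the MAPK bars 970 and 1611 against 3053 and 2768.

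Of 1015 genes that passed the filter on low counts, 6 were members, and 2 of these were higher in FMRP, against a background of 61.0% of tested genes called, 33.7% towards FMRP and 27.3% towards Hu. Both were scaffolds. Mapk8ip1 had 23 and 35 FMRP tags at P11 and P13 and 1 and 0 Hu tags, so its libraries stood far apart. Its log2 fold change of FMRP over Hu was 5.84 (SE 1.07), with a Benjamini-Hochberg adjusted p of 0.00224 in the quasi-likelihood test of edgeR (n = 2 libraries per protein). Leaving out 1 library at a time gave 4.60 to 8.06. Mapk8ip3 had 23 and 25 FMRP tags and 0 and 1 Hu tags, with a log2 fold change of 5.65 (SE 0.997) and an adjusted p of 0.00211 by the same edgeR test, and 4.93 to 7.62 with 1 library left out. A fitted fold beside so few Hu tags depends on the model's prior count. The ratio of tags gave 62.0 (10.7 to 2489) for Mapk8ip1 and 51.3 (8.78 to 2067) for Mapk8ip3. With tags placed on the genome within the gene bounds, introns included, Mapk8ip3 had 3 and 4 Hu tags and was at a log2 of 2.84, which still passed. The third scaffold with tags, Mapk8ip2, had 6 and 12 FMRP tags and 4 and 4 Hu tags, a ratio of 2.40 (0.995 to 6.39), and was not tested. It too was higher in both FMRP libraries than in either Hu library, but its interval holds 1.

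The other 4 members tested did not pass, and 3 of them are given here. Of these, Mapk9 and Mapk4 met the filter through the Hu libraries alone. Mapk9, the JNK2 gene, had 4 and 10 against 25 and 24, with a log2 of -1.56 (SE 0.74) and an adjusted p of 0.0879 by edgeR. Mapk9 passed, on the side of Hu, with library totals (-1.85) and with genomic tags (-1.80). Mapk4 had 6 and 9 FMRP tags against 14 and 21, with a log2 of -0.87 (SE 0.64) and an adjusted p of 0.246 by edgeR. Map4k4 had 23 and 9 against 14 and 7, with a log2 of 0.89 (SE 0.87) and an adjusted p of 0.384. For Map4k4 the P11 library was the higher one with both proteins, and the libraries of the proteins overlapped.

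Members below the filter were described by their tags. With 10 or more tags in the 4 libraries there were 17 members, of which 7 had both FMRP libraries above both Hu libraries in CPM and 8 had both below. Of 3393 genes with as many tags, 33.7% and 39.5% did so. By tier, 3 of 3 scaffolds and 3 of 5 MAP3Ks lay on the FMRP side, and 2 of 2 MAP2Ks and 5 of 6 MAPKs on the Hu side. On the FMRP side, the MAP3Ks were Map3k12 with 6 and 14 FMRP tags against 3 and 0 Hu tags (ratio 7.12, 2.11 to 37.4), Map3k10 with 4 and 5 against 0 and 1 (9.62, 1.33 to 421) and Map3k4 with 3 and 9 against 0 in both. With its Hu count set at the 3 counts over the group that 0 allows, Map3k4 was 4.27-fold higher in FMRP. This takes its FMRP count as exact, and the lower end of its exact interval was 2.97. The 4.27, 2.10 as a log2, was 0.55 without the P13 Hu library, 1.49 without the P11 Hu library and 1.499 without the P13 FMRP library. Among the genomic tags it had 12 FMRP and 2 Hu tags. Without the P11 FMRP library, Map3k12 also entered the test and passed, at a log2 of 3.48 (adjusted p 0.0372 by edgeR), but missed the threshold when the P11 Hu library was left out (adjusted p 0.0501 by edgeR) and when no filter was applied (log2 2.70).

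Mapk3 was the only member of the MAPK tier with 10 or more tags on the FMRP side. It had 5 and 8 FMRP tags and 0 Hu tags in either library, whereas the authors' table gives 3 and 4 FMRP tags there. Set against 3 Hu counts in the same way it was 4.63-fold higher in FMRP, and its exact interval began at 3.26. As a log2 the 4.63 was 2.21, and it was 0.66 without the P13 Hu library and 1.61 without the P11 Hu library. Mapk3 passed the edgeR test only where no filter was applied (log2 5.82, SE 1.93, adjusted p 0.0497). On the genome it had 7 FMRP tags and 1 Hu tag. The JNK genes with enough tags lay on the Hu side. Mapk9 was at a Hu over FMRP ratio of 3.28 (1.78 to 6.42), and Mapk10, with 2 and 7 FMRP tags against 6 and 11, at 1.77 (0.745 to 4.50), an interval that holds 1. Mapk8 had 2 tags with each protein. Mapk4 and Mapk6 were at 2.18 (1.16 to 4.30) and 2.995 (1.05 to 10.5). Mapk6 had 1 and 4 FMRP tags at P11 and P13 in the transcript lists, whereas the authors' table gives 4 and 14. The Mapk6 ratio thus depends on which FMRP count is used. Among the genomic tags Mapk6 had 18 with FMRP and 23 with Hu, a log2 of FMRP over Hu of -0.10, so its difference did not extend to them.

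Of the MAP2Ks, Map2k1 and Map2k4 had more Hu than FMRP tags, and Map2k2 and Map2k7 had 2 FMRP tags each and 0 Hu tags. Map2k1 had 0 and 3 FMRP tags against 2 and 12 Hu tags, a Hu over FMRP ratio of 4.37 (1.22 to 23.7), and Map2k4 had 2 and 3 against 4 and 11, a ratio of 2.81 (0.970 to 9.88), an interval that holds 1. Map3k1, which encodes MEKK1, was the MAP3K on the Hu side, with 3 and 3 FMRP tags against 22 and 12. Its ratio of 5.30 (2.20 to 15.5) did not extend to the genomic tags, of which it had 8 with FMRP and 7 with Hu. Map3k13 had 1 and 7 FMRP tags against 3 and 9, and its libraries overlapped. For 5 members with FMRP tags in the authors' table (Map3k9, Map3k5, Map3k2, Mapk11 and Mapk13) no library, FMRP or Hu, had a tag in the transcript lists, so a comparison with Hu was not made for them.

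**Figure D3:**
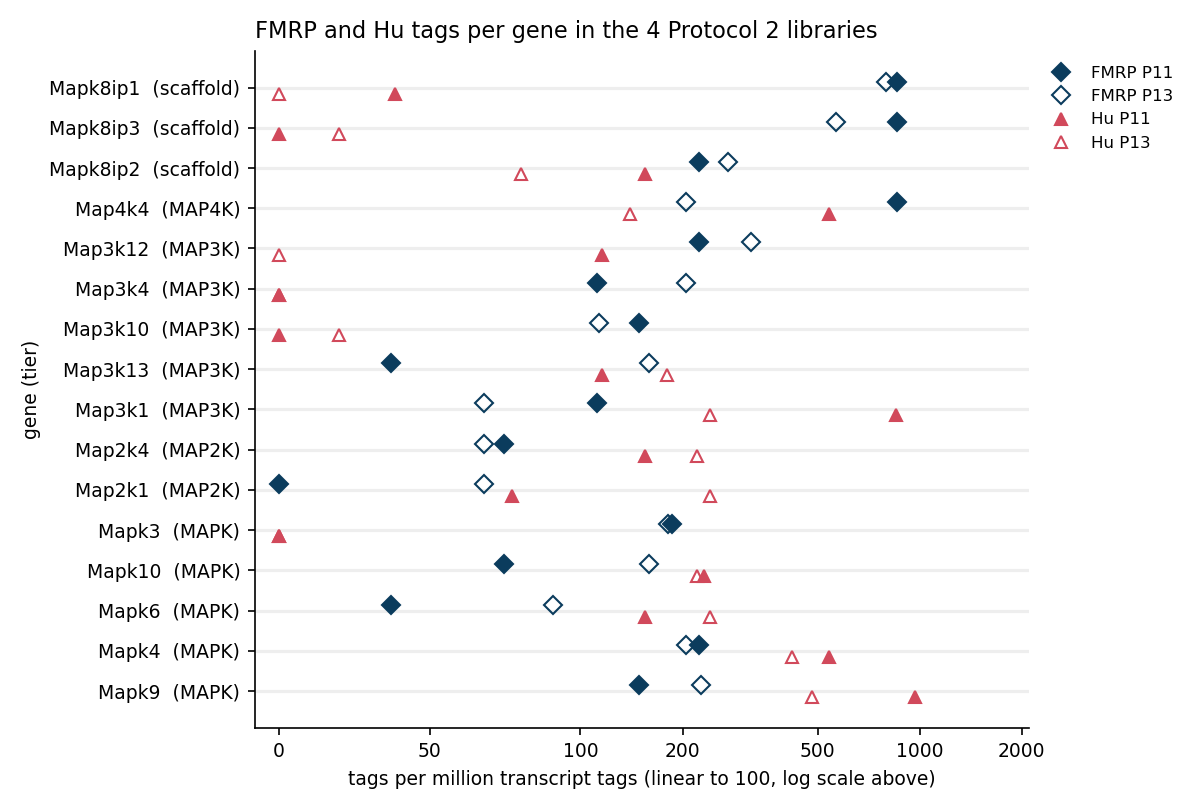
CPM, relative to transcript tags (horizontal axis, linear to 100 and logarithmic above) of 16 members with 10 or more tags in the 4 Protocol 2 libraries, with filled marks for P11 and open marks for P13. FMRP marks lie right of both Hu marks for 7 genes, among them the 3 scaffolds and Mapk3, and left of both for the others except Map4k4 and Map3k13, among them Mapk9 and the 2 MAP2Ks.

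Antibody and age were compared within Protocol 1, where counts were low. Only 96 genes passed the filter, and Mapk8ip3 was the single member among them. Of these genes 0.0% were called between the antibodies by edgeR at an adjusted p under 0.05, with 4 at an unadjusted p under 0.05. Mapk8ip3 was at a log2 of monoclonal over polyclonal of 0.43 (SE 0.71, adjusted p 0.999 by edgeR). Between P25 and the younger libraries 1.04% of the genes were called, and Mapk8ip3 was at 0.44 (SE 0.67, adjusted p 0.823 by edgeR) with the antibody as a term. A difference for Mapk8ip3 of about the size of these errors could not be seen at this depth, and the other members did not pass the filter.

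Protocol 2 was compared with Protocol 1 over the polyclonal FMRP libraries, where dissociation, sequencing platform and age differ together and cannot be told apart. Of 334 genes tested, 8.38% were called, 4.19% as lower in Protocol 2. Of the 3 members tested, Map3k10 was lower in Protocol 2, with 5 and 4 tags on 454 against 3 and 5 in the deeper Illumina libraries. Map3k10 met the filter through the 454 libraries alone, so its entry into the test favoured a call in this direction. The log2 fold change of Map3k10 was -2.35 (SE 0.28) with an adjusted p of 0.0241 by edgeR. This SE is smaller than counting error alone would give for so few tags, so it understates the error. The call rests on the filter: without it Map3k10 was at -1.64 (SE 0.99), with an adjusted p that ran from 0.0230 with DESeq2's size factors to 0.822 without the filter by edgeR, and after leaving out any of the 4 libraries Map3k10 no longer entered the test. Mapk8ip1 was at -0.72 (SE 0.58, adjusted p 0.468 by edgeR) and Mapk8ip3 at -0.40 (SE 0.63, adjusted p 0.719), and neither passed.

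Tags of FMRP on members lay mostly in coding sequence. By the authors' coding counts the share per library was 85.9% ± 7.26 (SD, n = 7), from 71.2% in the P13 Illumina library to 92.9% in the P14 polyclonal library. If tags had spread evenly along the merged transcripts, the share would have been 49.5% ± 2.65. Over all genes the share was 80.7% ± 5.73 against an even share of 56.1% ± 1.51, so the members' share was near that of all genes. The members' even share was lower by merged length, to which Mapk8ip3 with its long merged length contributes. In every library the members' 95% Wilson interval lay above their even share. The P13 Illumina library, the lowest for members, was also the lowest for all genes (68.9%).

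**Figure D4:**
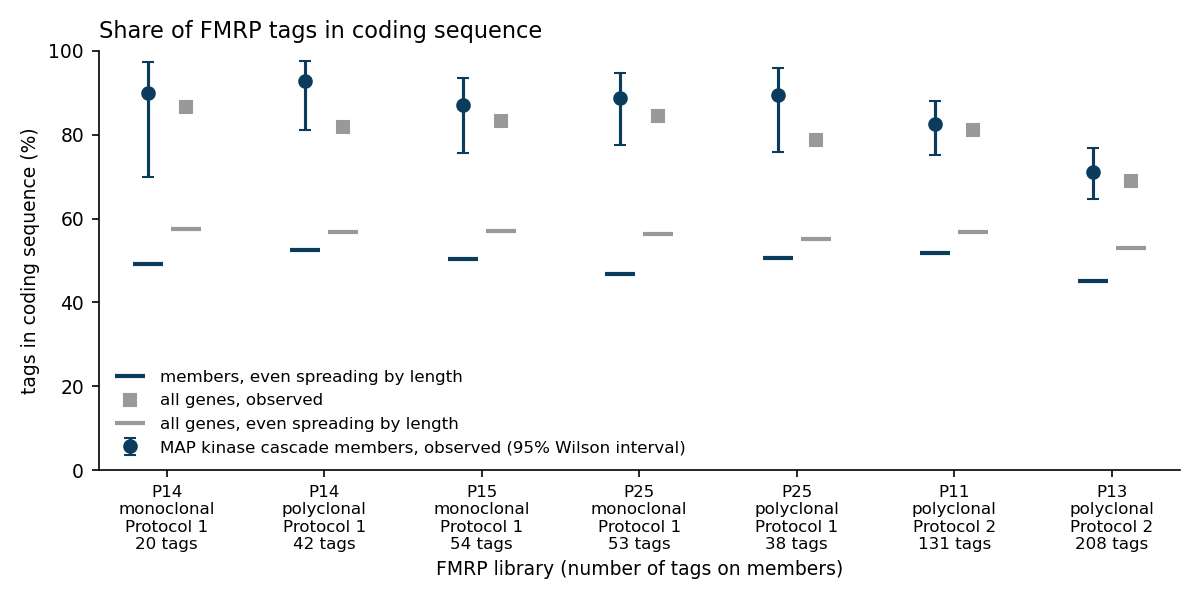
Percent of FMRP tags in coding sequence (vertical axis) in each of the 7 FMRP libraries, for the members (circles, with 95% Wilson intervals) and for all genes (squares), beside the share that even spreading by length would give (short bars). Members run from 71.2% to 92.9%, above their even share in each library.

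Gene by gene, the interval of the coding share lay above the coding part of the gene's length for 11 of the 16 members with 10 or more FMRP tags, and below it for 0. Of 2354 genes with as many tags, 56.3% lay above and 2.55% below. In Mapk8ip3, 87.6% of its 89 tags were coding (79.2 to 93.0), while coding sequence made up 33.8% of its merged length. That length was 11994 nt, but the last FMRP tag on its transcript ended at 5103 nt, so the 33.8% depends on the merged length. Mapk8ip1 was at 89.2% (80.7 to 94.2) with 63.0% of its length coding, and Map4k4 at 93.9% (83.5 to 97.9) with 67.6%. In the MAPK tier the genes differed. Mapk4 was at 88.5% with 30.0% of its length coding, Mapk10 at 78.6% with 15.8%, and Mapk3 at 92.3% with 60.0%. By contrast Mapk9 was at 35.7% (16.3 to 61.2) with 25.7% of its length coding, so that 9 of its 14 FMRP tags lay outside coding sequence. Of these 14 tags, 10 came from the P13 Illumina library, the lowest in coding share for all genes too, and its part was not tested.

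Hu tags lay nearer to the 3′ end of the transcript than FMRP tags. Of 10 members with 5 or more tags of each protein, 9 had the median Hu tag farther from the 5′ end than the median FMRP tag, as did 90.2% of 1844 transcripts with as many tags, so the members were like the rest. The exception was Mapk6, at 3112 nt for Hu and 3262 nt for FMRP. In Mapk9 the middle of the FMRP tags was at a median of 1644 nt and that of the Hu tags at 2802 nt. These medians were in Mapk4 1417 and 4387 nt, and in Map4k4 2510 and 4757 nt.

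Hu tags were also more bunched on some members. Of the 35 Hu tags of Mapk4, 27 (77.1%) lay in 1 window of 100 nt, from both Hu libraries, between 4285 and 4417 nt of the transcript. In Map4k4 11 of 21 did (52.4%, between 4690 and 4795 nt), and in Map3k1 29 of 34 (85.3%, between 4919 and 4976 nt). Map3k1 was the member with 7 Hu tags within its genomic bounds against 34 on its transcript, and Mapk4 had 19 against 35. In Mapk9 the fullest window held 18.4% of the Hu tags. Over members with 10 or more Hu tags the median share of the fullest window was 32.6% (n = 10), and over all such transcripts 41.2% (n = 1837). More than 50% lay in 1 window for 30.0% of these members and 36.3% of these transcripts. FMRP tags were spread: the fullest window held 10.0% of the tags of Mapk8ip3, 13.2% of those of Mapk8ip1 and 10.4% of those of Map4k4, with a median of 18.2% over 14 members and 19.2% over 2319 transcripts. In Mapk8ip3, 85 distinct placements made up the 90 transcript tags.

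**Figure D5:**
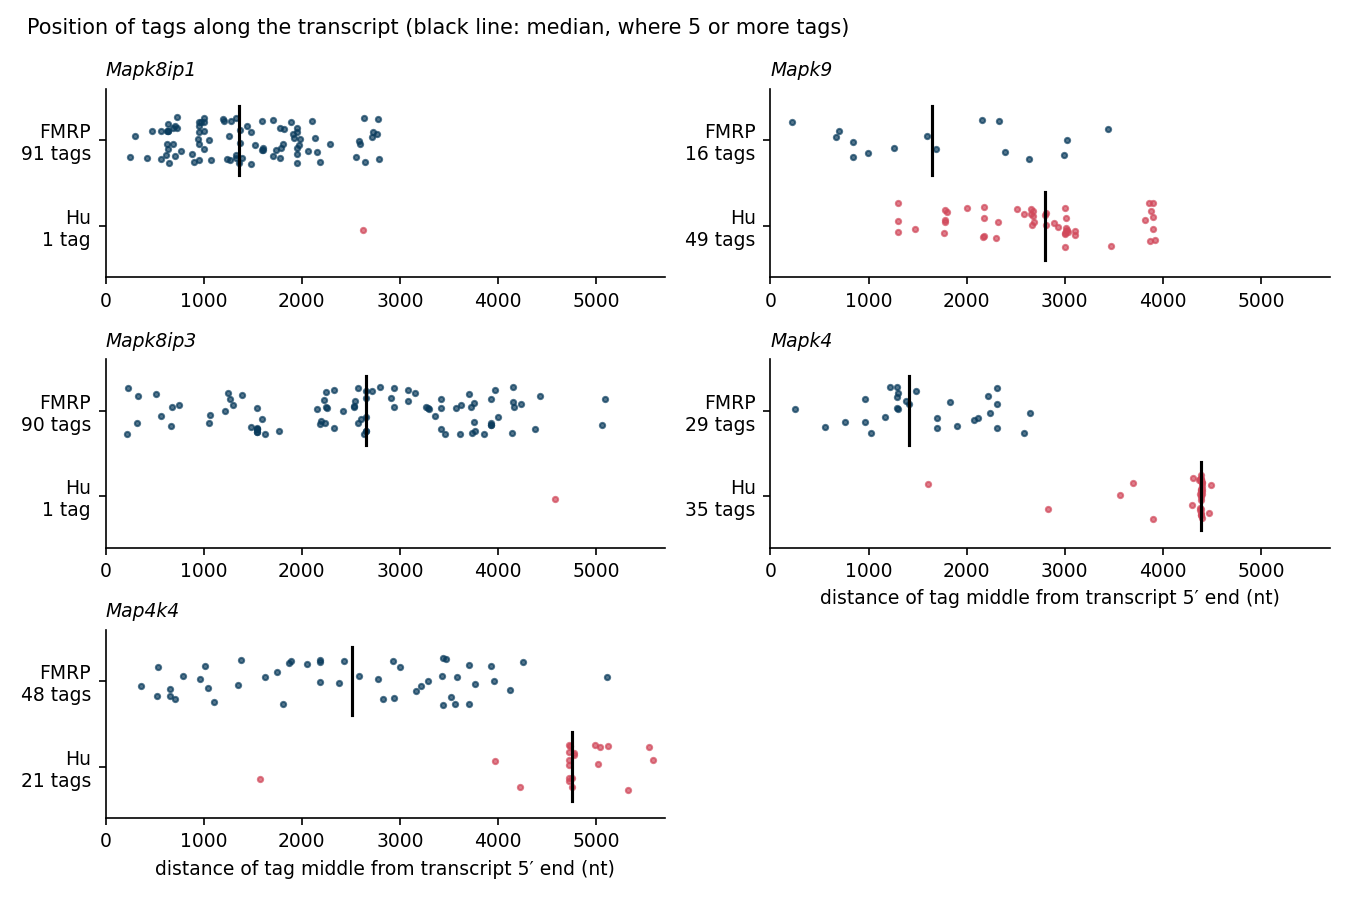
Distance of the middle of each tag from the 5′ end of the transcript (horizontal axis, nt) for 5 members, with FMRP tags of all 7 libraries in the upper row of each panel and Hu tags of the 2 Hu libraries in the lower row (vertical scatter has no meaning). Tags of FMRP on Mapk8ip1 and Mapk8ip3 are spread along the mRNA with 1 Hu tag each, while the median Hu tag of Mapk9, Mapk4 and Map4k4 lies farther from the 5′ end than the median FMRP tag.

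Tag numbers rise with the amount of an mRNA, which these libraries do not give, and in bulk lysates fewer cells of a type and less RNA per cell cannot be told apart. The exon array intensity in the authors' table, from a measurement of its own whose tissue is not stated, was set beside the tags per kilobase of merged length. Across the 43 members with an intensity and a transcript length, Spearman's rho with the mean FMRP CPM per kilobase was 0.388 and with the Hu tags 0.404, and across 8601 genes with an FMRP tag it was 0.414 and 0.306 (genes are not independent replicates, and they share the libraries and the length). The 43 members include some without an FMRP tag, unlike the 8601 genes, and genes absent from the transcript lists entered with a Hu value of 0. The order of the members by FMRP differed from that by intensity. Mapk8ip3 had an intensity of 146, above 57.2% of genes, and 93.2 FMRP CPM per kilobase, over a merged length of 11994 nt. The last FMRP tag on its transcript ended at 5103 nt, so this level depends on the merged length. Mapk8ip1, with an intensity of 1484 above 97.5% of genes, had 278 FMRP and 5.59 Hu CPM per kilobase, the highest FMRP level per length of the named members. Map3k9, with an intensity above that of 96.9% of genes, had 18.6.

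Other genes around the cascade were taken from a list of 88 that holds Ras proteins, their exchange factors and GTPase-activating proteins, Raf kinases, phosphatases, targets and adaptors. Of these, 71 had an Illumina tag and 16 were tested against Hu, of which 5 were higher in FMRP, 2 higher in Hu and 9 did not pass, beside 33.7% and 27.3% of all genes tested. Their median log2 was 1.23, and that of all genes was -0.17. With the lysate as a replicate block 7 were higher in FMRP, since Nf1 (log2 1.82, adjusted p 0.0204 by edgeR) and Rapgef2 (log2 1.81, adjusted p 0.0335) passed as well. Nf1 encodes a Ras GTPase-activating protein and Rapgef2 an exchange factor of Rap proteins. Rasgrf1, a calcium-dependent exchange factor of Ras, had 8 and 44 against 0 and 1 (log2 5.66, SE 1.21, adjusted p 0.00427 by edgeR). It met the filter through the FMRP libraries alone, as did Strn4 and Mink1 below. It fell below the filter without the P13 FMRP library, with 1 tag per position and with genomic tags. Strn4, a striatin of the phosphatase complexes that hold Ste20-type kinases, had 20 and 19 against 0 and 5 (log2 3.37), and lost its call when the P11 Hu library was left out (log2 2.48). Mink1, a close relative of Map4k4, was at 3.08 and Rasgrp1, another Ras exchange factor, at 2.70, and both lost the call without the P13 FMRP library, and also without the P11 Hu library (3.28 and 1.73) or without the filter (2.93 and 2.57). Rasgrp1 stood close to the threshold, at an adjusted p of 0.0495 by edgeR, and also lost its call in edgeR's other form (0.0807).

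On the Hu side of that list, Atf2, a transcription factor phosphorylated by JNK and p38, had 2 and 3 FMRP tags against 16 and 25 Hu tags (log2 -2.63, SE 0.69, adjusted p 0.0104 by edgeR). Taok1, a Ste20-type kinase upstream of p38, had 19 and 13 against 47 and 91 (log2 -1.66, SE 0.62, adjusted p 0.0400 by edgeR). The filter was met by Atf2 through the Hu libraries alone. Atf2 lost its call after leaving out any of the 4 libraries (log2 -2.23 to -2.73), with genomic tags (-1.19), in DESeq2's test (-2.36) and without the filter (-2.79). Taok1 lost its call without the P11 FMRP library (-1.86), the P11 Hu library (-1.94) or the P13 FMRP library (-1.002), and with DESeq2's size factors (-1.23), DESeq2's test (-1.19), edgeR's other form (-1.66) and no filter (-1.87). Braf, the Raf kinase above MEK in neurons, was at -0.62 (SE 0.65) and did not pass.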

How the data were processed

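Tags were mapped with Novoalign to mm9, per the submitters' processing notes, which give no version. The authors deposited a gene table with counts of tags per gene, as whole numbers, in each of the 7 FMRP libraries (whole transcript and coding sequence), merged transcript lengths, an exon array intensity and an FDR, treated as a score because the deposited values exceed 1 in many lines. They also deposited lists of unique tags on RefSeq transcripts and on the genome, whose start and end positions were used and in which each line was counted as 1 tag.

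FMRP counts by library, the coding share and the comparisons within FMRP used the table. FMRP against Hu used the transcript lists, joined to the table by RefSeq accession (99.4% of 177620 tags). Counts were tested over all genes with edgeR 4.0.16 in R 4.3.3 (TMM, filterByExpr, quasi-likelihood test, Benjamini-Hochberg, 0.05), checked on simulated counts. DESeq2 1.42.0 served as an alternative. Ratios of tags have exact conditional binomial intervals, and shares Wilson intervals, at 95%. P11 and P13 lysates pair the FMRP and Hu libraries by the series text; the differences between P11 and P13 correlated between proteins with r = 0.161 over 1015 genes. Named with values are members tested against Hu or with at least 10 FMRP tags in the table or 10 Hu tags, and in the list of 88 genes those with the largest folds among those called. Values of 1 member and of 1 gene of that list are not reported here, though sums and counts include them. The other members, Mink1, Rasgrp1, Nf1, Rapgef2 and Braf were named after their values were seen. The members and lists were chosen with earlier results of these data known. No member sequence was read, as no genome was used here.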

Additional observations from a re-analysis of the deposited data

How the results depend on the processing

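Of the FMRP against Hu members, 2 passed in the reported fit and 4 passed with library totals and with genomic tags, where Mapk9 was among those that joined (-1.85 and -1.80), the cause of which was not tested. With DESeq2's size factors, its test, edgeR's other form, 1 tag per position and the lysate as a replicate block 2 passed. Without the filter 3 did. Leaving out 1 library gave 2 to 3, Mapk8ip1 and Mapk8ip3 among them each time. The replicate block (603 genes called against 619) changed no call of a member, while in the wider list Nf1 and Rapgef2 joined. The genes called in all fell to 323 without the P11 Hu library. Between Protocol 2 and Protocol 1, 1 member passed, 0 without the filter and 0 to 0 after leaving out each library, since Map3k10 was then not tested. Mapk8ip3 reversed there, from -0.40 to 0.30 without the filter, and ran from -0.58 to 0.0042 when 1 library was left out (0.0042 without the P25 polyclonal 454 library). No member was left to test between antibodies without the P15 or the P25 monoclonal library, nor between ages without the P15 one. The coding share stayed between 84.8% and 88.4% when 1 library was left out. Of the tag ratios, Map3k1's log2 of -2.41 became 0.44 with genomic tags, and Map3k13's -0.49 became -2.09 without the P13 FMRP library. Map3k10's 3.27 became 0.13 without the P13 Hu library, where its 0 Hu tags were set at 3 counts. Counts under 10 tags limit most members.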
